A study of Rattus norvegicus with 24 samples.

Results

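Exposure differences shared by 7 and 28 days of formaldehyde inhalation were measured in the nasal tissue of male Fischer rats, on 12 of the 24 Affymetrix arrays of the study. The effect of a probe set was the average of its exposed minus control difference at 7 days and that at 28 days, from 6 exposed and 6 control arrays with day as a block. Of 29214 probe sets, 21910 had a mean over the nasal arrays at or above percentile 25 (6.61 on the log2 scale) and were tested. Exposed rats were held in nose-only tubes and breathed 2 ppm formaldehyde, vaporized from isotope-labelled paraformaldehyde, 6 hours daily over 7 or 28 days. Control rats sat in the same kind of tube with room air, so restraint in the tube was common to both arms. All rats were about 8 weeks old at the start, and each of the 4 groups had 3 arrays, a number that limits the precision. The tissue was cut from the maxilloturbinate, a scroll of bone in the front of the nose, and not sorted. The labels do not state that replicates were separate rats, so the p-values measure the spread between these samples, which may be technical. The remaining 12 arrays, of circulating white blood cells from the same exposure groups, served only for tests of nose against blood.

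The maxilloturbinate is lined mostly by respiratory epithelium, with ciliated, secretory and basal cells over a vascular and collagen-rich mucosa that holds resident macrophages. Olfactory epithelium lies further back, and its sensory neurons detect odours with odorant receptors that act through a G protein, adenylyl cyclase and a cyclic nucleotide-gated channel. Formaldehyde is a water-soluble irritant taken up largely in the front of the nose, where it reacts with glutathione and is oxidised by formaldehyde and aldehyde dehydrogenases.

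Epithelial markers were present in the nasal arrays. Over the 6 control arrays Epcam, an epithelial adhesion protein, lay between log2 9.30 and 11.4 in nose against 3.69 to 5.30 in blood. Bpifa1, a secreted protein of airway epithelium, lay between 12.7 and 13.7 in nose against 4.92 to 6.40 in blood. Foxj1, the master factor of motile cilia, lay between 8.74 and 9.89 in nose, while Scgb1a1, the club cell secretoglobin, lay between 5.96 and 6.78 and did not pass the level filter. Omp, the marker protein of mature olfactory neurons, ran from 8.15 to 11.7 in the nasal controls, above the filter level, in tissue named for the maxilloturbinate. Arrays at 28 days had lower medians (log2 7.88 to 7.99) than those at 7 days (8.95 to 8.97), so day was a term of every fit and no level was compared between days. Replicate 1 of the 28 day controls, called 28 day control 1 from here on, stood apart. Its mean over 22 genes of mature olfactory neurons was log2 7.40, against 9.56 and 9.31 in the other controls and 9.55 to 9.90 in the exposed arrays of that day. The mean correlation with its own group over all probe sets was 0.927 for 28 day control 1 and 0.929 for 28 day control 3, against 0.979 or more for every array of the 7 day groups. Many results are given with and without 28 day control 1, though not every one that it moves.

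Exposed noses differed from controls in both directions. Genes of olfactory neurons, odorant receptors and some genes of motile cilia were higher, and genes of macrophages, the interferon response, blood vessels and connective tissue were lower. Of 21910 probe sets, 2896 (13.2%) passed the threshold of an adjusted p under 0.05 (limma, Benjamini-Hochberg), of which 1524 (6.96%) rose and 1372 (6.26%) fell. At an unadjusted p under 0.05 there were 6507 (29.7%). Counted as 1 probe set for each of 12211 genes, 990 (8.11%) rose and 988 (8.09%) fell, and these shares are the background for the gene groups that follow. Of the called probe sets, 277 rises and 14 falls were at least 2-fold. The median difference over all probe sets tested was −0.02.

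**Figure D1:**
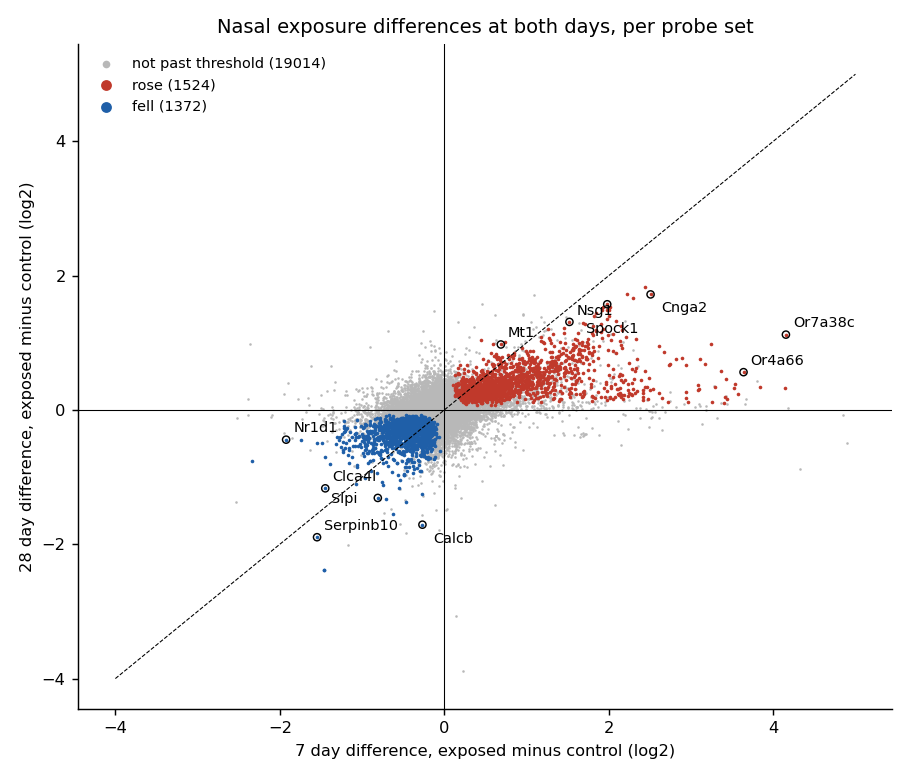
Each point is a probe set, with the exposed minus control difference at 7 days on the x axis and at 28 days on the y axis (both log2). Colours mark the 1524 that rose and the 1372 that fell in the mean over both days, while circles mark named genes and the dashed line is equality. The rises had median differences of 0.68 at 7 days and 0.36 at 28 days.

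Most called effects were larger at 7 days. Called rises had a median difference of 0.68 at 7 days and 0.36 at 28 days, and called falls of −0.40 and −0.30. Without 28 day control 1, the median ratio of the 28 day to the 7 day difference moved from 0.549 to 0.344 in the called rises, and from 0.745 to 0.660 in the called falls. With each day taken alone, 3564 probe sets (16.3%) passed at 7 days and 1 (0.00456%) at 28 days. Without 28 day control 1, 1081 passed at 28 days. All 3 exposed arrays lay on one side of all 3 controls at both days for 2073 probe sets (9.46%), 917 with exposed above (4.19%) and 1156 with exposed below (5.28%). By genes, 4.69% had exposed above and 6.63% exposed below at both days. The groups were apart at 7 days alone for 53.3% of probe sets and at 28 days alone for 16.2%, in either direction.

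The number of calls changed when single arrays were left out and when an olfactory covariate was added to the fit. Leaving out 1 array gave between 1042 calls (without 7 day control 1) and 5261 (without 28 day control 3). Without 28 day control 1 there were 1840, of which 1741 were among the 2896, and without 7 day controls 2 or 3, 7 day exposed 1, 2 or 3 or 28 day exposed 2 there were 1259 to 1699. When the mean of the 22 olfactory neuron genes on each array was added to the fit as a covariate, 5 probe sets passed, all lower, no gene list kept a called member, and 4540 probe sets had an unadjusted p under 0.05. That mean was itself higher in all exposed than in all control arrays at 7 days, so the covariate and exposure overlapped, and the part of the olfactory signal in the results below was not tested.

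**Figure D2:**
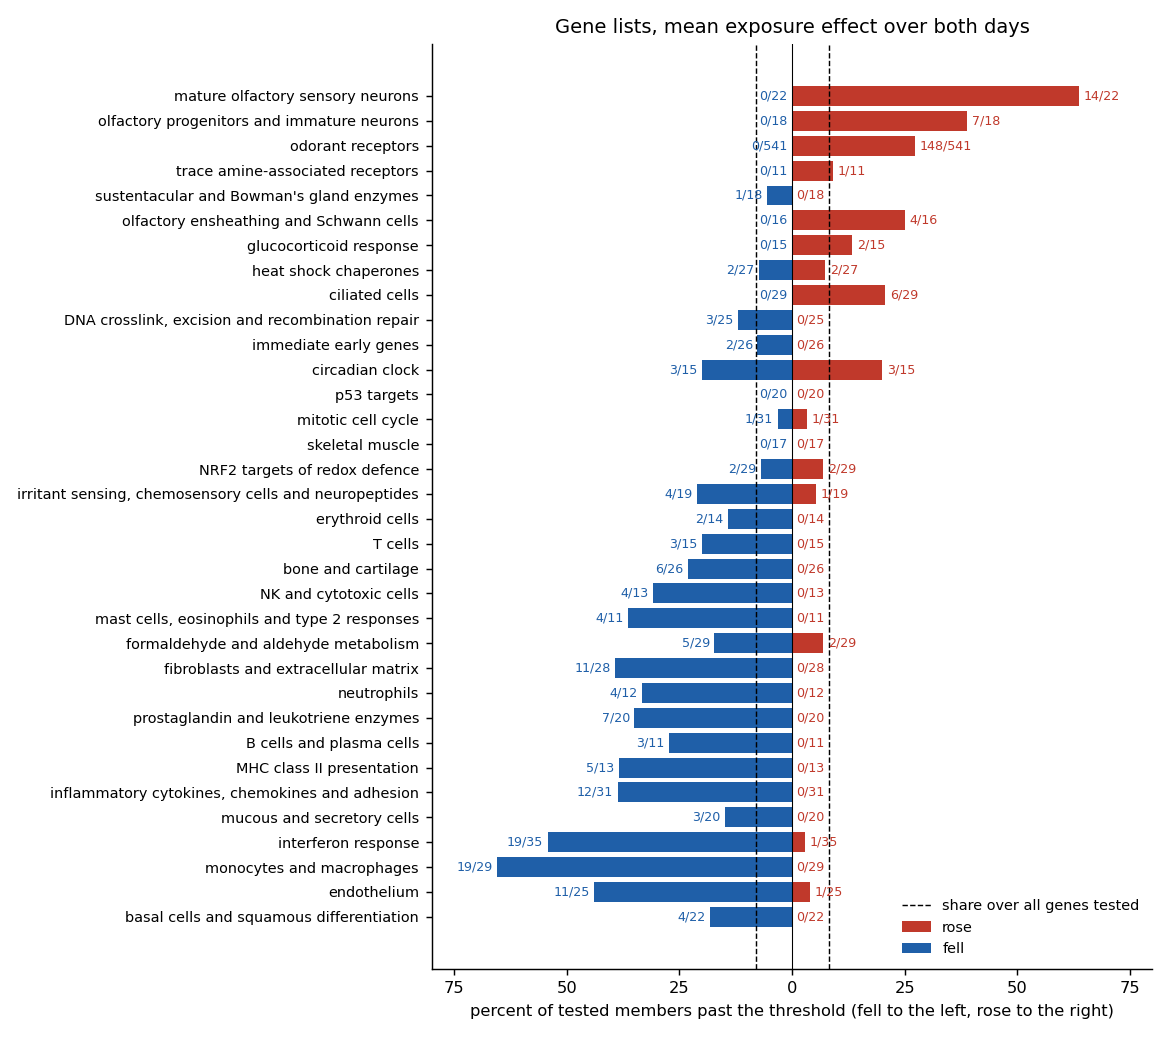
Share of the tested members of each gene list that passed the threshold in the mean effect over both days, with falls to the left, rises to the right, the counts beside each bar and dashed lines at the shares over all genes (8.11% rose, 8.09% fell). Lists with at least 10 tested members are ordered by their median difference. Mature olfactory neurons are at the top with 14 of 22 higher, and macrophages (19 of 29) and interferon response genes (19 of 35) have the longest bars to the left.

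Genes of mature olfactory neurons had the largest median difference of all lists. Of 22 tested members 14 rose (background 8.11%) and 0 fell. The median difference of the list was 1.38, with 1.72 at 7 days and 0.99 at 28 days, and the 28 day median was 0.32 without 28 day control 1. Cnga2, the main subunit of the olfactory cyclic nucleotide-gated channel, lay at log2 7.85, 10.22 and 9.89 in 7 day controls and at 12.11, 11.68 and 11.69 in exposed. At 28 days the values were 6.23, 10.20 and 9.63 in controls and 10.28, 10.82 and 10.11 in exposed. The groups were apart at 7 days and overlapped at 28 days, where 28 day control 1 was far below the other arrays. Its mean difference was 2.11 ± 0.62 (SE, 6 against 6 arrays; adjusted p = 0.0434, limma), and it was past the threshold in 2 of the 12 fits with 1 array removed (leave-out fits). Omp had a mean difference of 1.70 ± 0.51 (adjusted p = 0.0485), and Adcy3, the adenylyl cyclase of the same cascade, one of 1.60 ± 0.40 (adjusted p = 0.0268). Without 28 day control 1 the adjusted p was 0.0593 for Cnga2, 0.0667 for Omp and 0.0393 for Adcy3. Cnga2 passed without 28 day controls 2 or 3, as did Omp. Adcy3 passed in 6 of the 12 leave-out fits, not without 7 day controls 1 or 3, any one 7 day exposed array or 28 day exposed 2.

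Other members passed in every leave-out fit. Nsg1, an endosomal protein of neurons, lay at log2 10.40, 11.37 and 11.12 in 7 day controls and at 12.67, 12.35 and 12.43 in exposed. Controls at 28 days lay at 8.99, 10.96 and 10.29, and exposed arrays at 11.39, 11.45 and 11.34. Exposed arrays were above all controls at both days. Nsg1 rose by 1.42 ± 0.28 (adjusted p = 0.0129) and Cngb1, the modulatory channel subunit, by 0.94 ± 0.17 (adjusted p = 0.0098). Rtp2, which helps bring odorant receptors to the cell surface, rose by 0.82 ± 0.14 and Slc24a4, the exchanger that clears calcium from olfactory cilia, by 1.42 ± 0.27. These 4 passed in all 12 leave-out fits. Over the list, leaving out any one of the 6 arrays at 7 days, or 28 day exposed 2, left 4 to 8 calls. The count was 10 without 28 day control 1 and 21 without 28 day control 3.

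The 12 rises named for the largest difference shared by both days included 4 members of the olfactory neuron list, Cnga2, Omp, Nsg1 and Adcy3. In all they were Cnga2, Spock1, Flrt1, Elavl3, Ebf3, Omp, Ebf4, Acsl6, Cacna1b, Nsg1, Uchl1 and Adcy3, with mean differences from 1.42 to 2.11. Ebf3 and Ebf4 are transcription factors of the early B-cell factor family, which acts in olfactory neurons. Elavl3 is a neuronal RNA-binding protein, Cacna1b the pore of the N-type calcium channel and Uchl1 a ubiquitin hydrolase abundant in neurons. Acsl6, an acyl-CoA synthetase of neural tissue, lay at log2 8.73, 10.08 and 9.77 in 7 day controls and at 11.83, 11.30 and 11.39 in exposed. The 28 day arrays read 7.31, 9.46 and 8.60 in controls and 9.67, 10.11 and 9.67 in exposed. Control and exposed arrays did not overlap at either day, and Acsl6 rose by 1.67 ± 0.34 (adjusted p = 0.0144). Of the 12 genes, 9 had groups apart at both days (4.69% of all genes had exposed above at both). Choosing the 12 by their differences at both days favours this. Without 28 day control 1, 10 of the 12 passed, 7 passed without 7 day control 1, and 5 passed in every leave-out fit. Their 28 day differences ran from 1.28 to 1.72 over all arrays and from 0.39 to 0.80 without 28 day control 1.

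**Figure D3:**
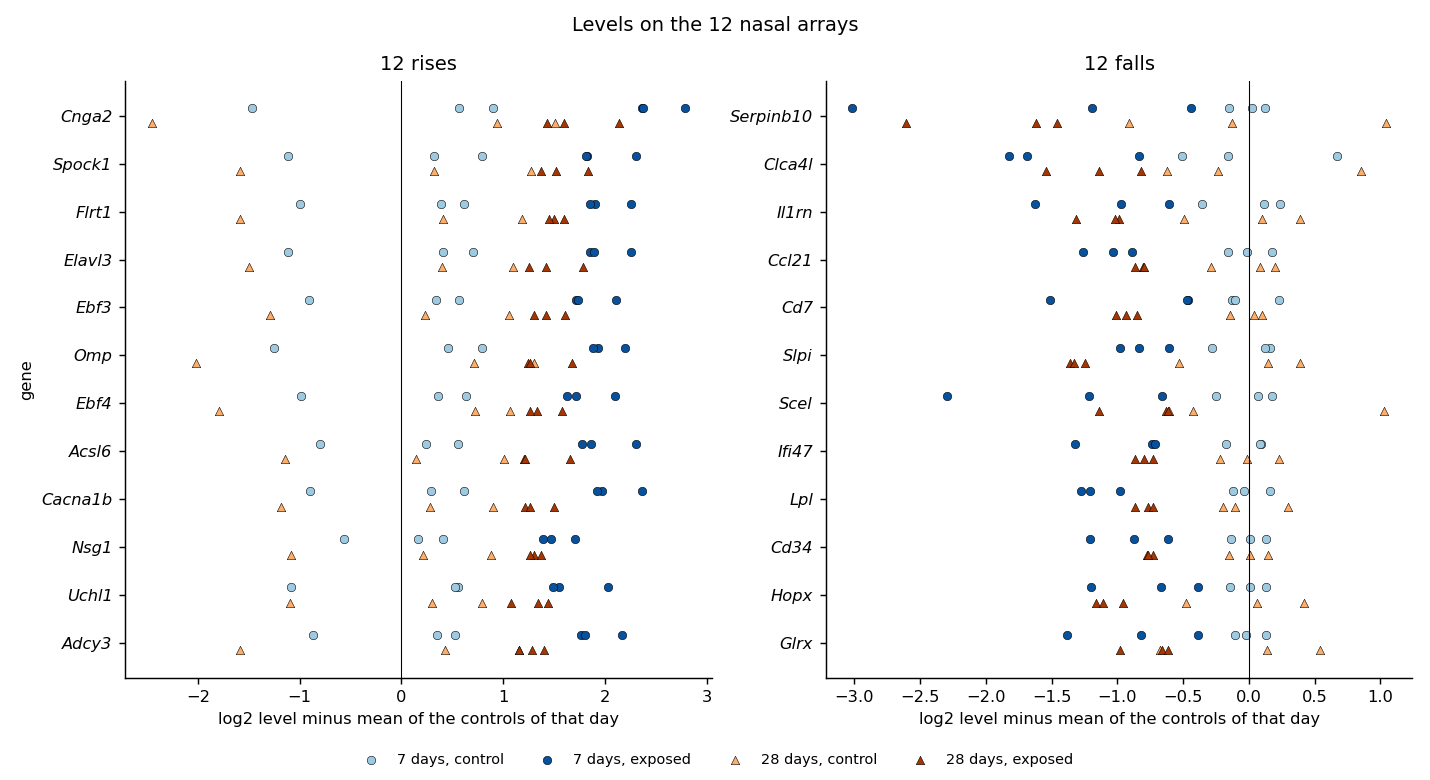
Levels of the 12 rises and 12 falls on each of the 12 nasal arrays, as log2 level minus the mean of the 3 controls of that day, with colours for day and for control or exposed. In the rises 1 control of each day lies far to the left of the others, and in falls such as Ccl21, Lpl and Cd34 the exposed arrays lie apart from the controls at both days.

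Of the 21 called genes of mature and immature olfactory neurons, 14 had a RefSeq promoter. Cnga2 alone among these held TCCC, any 2 bases, then GGGA, the core letters bound by early B-cell factors, sought on both strands from 250 bases before to 50 after the start of transcription. The same letters were in 1 of 29 tested members of these lists with a promoter (3.45%) and in 279 of 33469 promoters of that length (0.834%). The 250 bases upstream of Cnga2 are shown because it alone of the 14 held the letters (RefSeq, GRCr8, chrX:154741516-154741765, plus strand). Capitals mark the match, which starts 98 bases before the start site.
Cnga2: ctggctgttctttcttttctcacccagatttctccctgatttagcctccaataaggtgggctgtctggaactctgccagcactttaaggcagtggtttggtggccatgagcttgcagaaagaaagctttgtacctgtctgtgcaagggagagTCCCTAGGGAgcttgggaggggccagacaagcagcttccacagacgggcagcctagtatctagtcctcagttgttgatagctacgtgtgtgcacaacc

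Genes of olfactory progenitors and immature neurons were higher as well. Of 18 tested members 7 rose (background 8.11%) and 0 fell, with a median of 0.77. Stmn4, a neuronal regulator of microtubules, rose by 1.34 ± 0.25 (adjusted p = 0.0114). Dpysl5, which acts in axon growth, rose by 1.20 ± 0.26, and Gng8, the G protein subunit of immature olfactory neurons, by 0.51 ± 0.12. The groups were apart at both days for these 3 genes, and each passed in every leave-out fit. The 28 day median of the list moved from 0.49 to 0.09 without 28 day control 1. Then 5 members passed, against 4 without 7 day controls 1 or 3 or 7 day exposed 1, and 13 to 14 without 28 day controls 2 or 3.

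Odorant receptor genes were tested where their level allowed. Of 1105 on the array 541 passed the filter, which receptors high in exposed arrays could pass through those arrays. Of the 541, 148 rose (background 8.11%) and 0 fell, with a median of 0.68, 1.02 at 7 days and 0.21 at 28 days. The 28 day median was 0.05 without 28 day control 1. Or12j4 lay at log2 8.56, 7.05 and 7.76 in 7 day controls and at 11.45, 10.50 and 11.16 in exposed. After 28 days, controls lay at 6.85, 8.08 and 8.54 and exposed arrays at 8.84, 8.61 and 8.97. Exposed arrays were above controls at both days, by less at 28 days. Or12j4 rose by 2.11 ± 0.45 (adjusted p = 0.0164) and passed in all 12 leave-out fits. Or7a38c rose by 2.64 ± 0.79 (adjusted p = 0.0472) and passed in 3 of them. Or4e5 differed by 4.90 at 7 days and −0.49 at 28 days, and its mean of 2.21 ± 0.88 did not pass (adjusted p = 0.115). Receptor genes have near-identical relatives, so a probe set may read more than its own gene. The count of rises was 45 without 28 day control 1, 12 without 7 day control 1, 13 to 44 without any other 7 day array or 28 day exposed 2, and 315 without 28 day control 3. Only 26 passed when probe sets under the median level were left out. Taar6, a trace amine-associated receptor, rose by 0.84 ± 0.24, 1 of 11 tested members of its family (background 8.11%). It was not past the threshold without 28 day control 1 or any one 7 day array, nor without 28 day exposed 2.

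Genes of supporting cells mostly missed the threshold. Of 18 genes of sustentacular cells and Bowman's glands 0 rose and 1 fell (background 8.11% and 8.09%), and the list's median was 0.11. The fall was that of Gsta3, a glutathione transferase, by −0.34 ± 0.09. Gsta3 passed in 3 of the 12 leave-out fits, without 28 day controls 2 or 3 or 28 day exposed 2, and not without 28 day control 1 or any one 7 day array. Rises in this list numbered 2 without 28 day control 2 and 3 without 28 day control 3. Of 16 genes of ensheathing and Schwann cells 4 rose (background 8.11%), namely Npy, a neuropeptide also made by ensheathing cells, L1cam, Fabp7 and Mag. Npy lay at log2 9.16, 9.69 and 9.45 in 7 day controls and at 10.85, 10.05 and 10.25 in exposed. At 28 days the values were 8.06, 8.45 and 8.60 in controls and 9.38, 9.09 and 8.97 in exposed. Exposed arrays lay above controls at both days, and Npy rose by 0.86 ± 0.15 (adjusted p = 0.00929), which held in every leave-out fit. Without 28 day control 1, 28 day exposed 2 or any one 7 day array, 1 of the 4 passed. In bulk tissue, fewer cells of a type and less RNA per cell cannot be told apart.

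**Figure D4:**
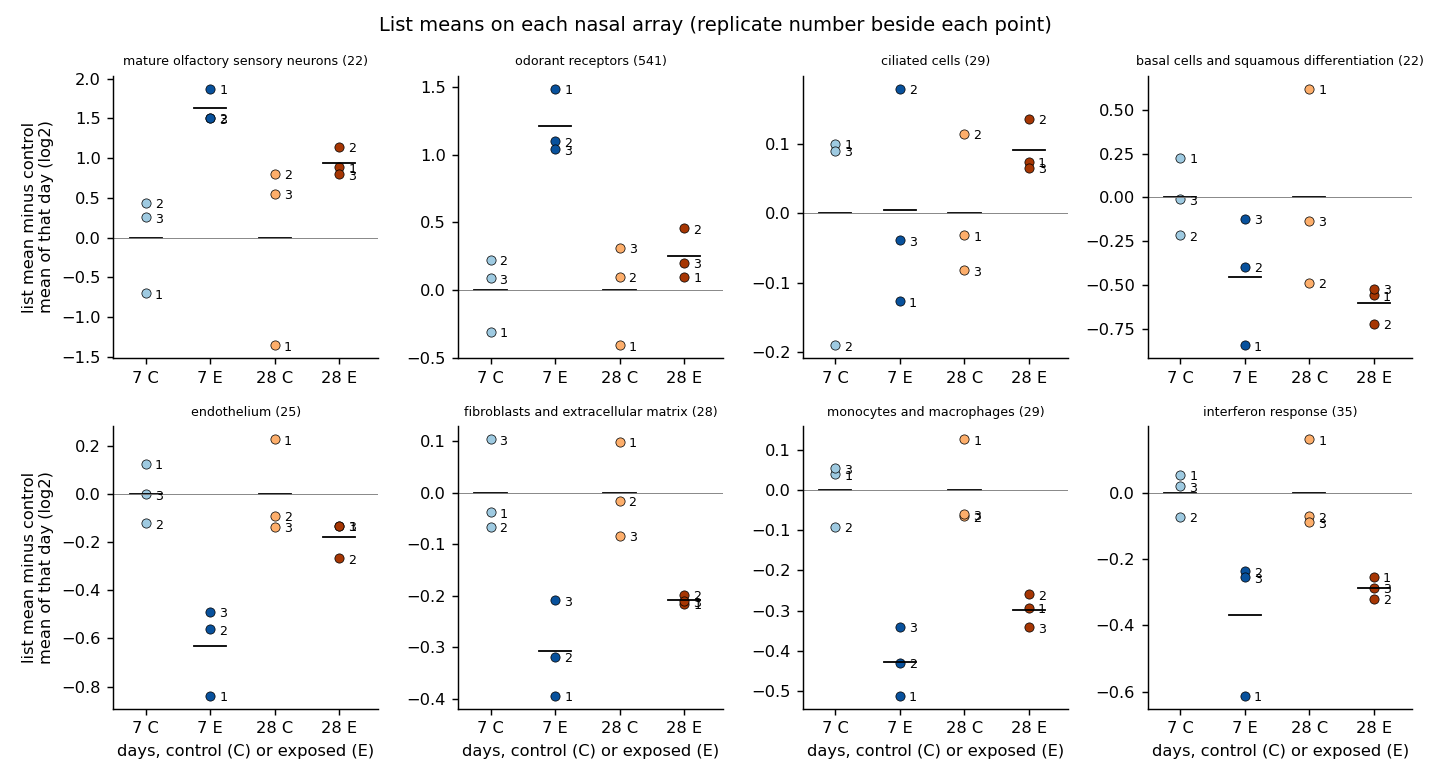
Mean of 8 gene lists on each nasal array, as the list mean (log2) minus the control mean of that day, with days and control (C) or exposed (E) on the x axis, the replicate number beside each point, and black bars for group means. The number of tested members is in each title. 28 day control 1 lies at −1.35 for olfactory neurons.

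In the list of ciliated cells 6 of 29 genes rose (background 8.11%) and 0 fell, while the median of the list was 0.02. Mns1, a structural protein needed for motile cilia, lay at log2 9.42, 9.29 and 9.50 in 7 day controls and at 10.24, 10.08 and 9.98 in exposed. Controls at 28 days lay at 7.83, 7.89 and 7.28, and exposed arrays at 8.39, 8.63 and 8.34. The groups were apart at both days, with a rise of 0.74 ± 0.10 (adjusted p = 0.00704) and a 28 day difference of 0.87 without 28 day control 1. Ccdc39, which sets the spacing of axonemal dyneins, rose by 0.48 ± 0.08, Rsph1, of the radial spoke, by 0.39 ± 0.08 and Dnali1, a dynein light chain, by 0.44 ± 0.11. Ccdc40 and Tubb4b completed the 6, and Mns1, Ccdc39 and Rsph1 passed in every leave-out fit. The count was 3 without 7 day control 1, 7 day exposed 1 or 2, or 28 day exposed 2. Mature olfactory neurons also carry cilia, though not motile ones of this kind.

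Monocyte and macrophage genes formed the broadest fall. Of 29 tested members 19 fell (background 8.09%) and 0 rose, with a median of −0.39, −0.42 at 7 days and −0.29 at 28 days. Mpeg1, a pore-forming protein of macrophages, lay at log2 8.83, 8.65 and 8.78 in 7 day controls and at 7.79, 8.21 and 8.21 in exposed. The 28 day arrays read 8.05, 7.82 and 8.26 in controls and 7.24, 7.19 and 7.20 in exposed. No exposed array reached a control at either day, and Mpeg1 fell by −0.76 ± 0.09 (adjusted p = 0.00698). Fcgr2b, the inhibitory Fc receptor, fell by −0.70 ± 0.08, Tyrobp, a signalling adaptor of myeloid cells, by −0.58 ± 0.08 and Lyz2, a lysozyme, by −0.58 ± 0.09. These 4 genes passed in all 12 leave-out fits. For 12 members of the list all exposed arrays lay below all controls at both days (6.63% of genes did). Without 28 day control 1, 14 members fell and the 28 day median was −0.18. Without 7 day control 1, 11 fell.

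Genes of antigen presentation and of lymphocytes fell in part. Of 13 MHC class II genes 5 fell, among them RT1-DMb, a part of the peptide loader, by −0.55 ± 0.08, RT1-Da, a class II chain, by −0.54 ± 0.11 and Ctss, the cathepsin that trims the invariant chain, by −0.44 ± 0.08. Of 15 T cell genes 3 fell, and of 11 B and plasma cell genes 3 fell (background 8.09% for each list here). Of 13 genes of natural killer and cytotoxic cells 4 fell, with 0 rises in each list. Cd3e, a chain of the T cell receptor complex, fell by −0.48 ± 0.11, Il7r, the interleukin 7 receptor, by −0.68 ± 0.12 and Klrk1, an activating killer cell receptor, by −0.73 ± 0.16. Cd7, a surface protein of T and natural killer cells, fell by −0.87 ± 0.16 and was among the 12 falls with the largest difference shared by both days. These 7 named genes passed in every leave-out fit. MHC class II falls numbered 3 without 7 day controls 1 or 3 and 9 without 28 day control 3. Killer cell falls numbered 1 to 2 without 28 day control 1, 28 day exposed 1 or 2 or any one 7 day array. B cell falls numbered 1 without any one 7 day array or 28 day exposed 1 or 2, and 5 to 6 without 28 day control 2 or 28 day exposed 3.

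Of 12 neutrophil genes 4 fell, Alox5ap, the activator of 5-lipoxygenase, by −0.56 ± 0.08, Hp, haptoglobin, by −0.53 ± 0.10, Lcn2, an iron-binding defence protein, by −0.41 ± 0.11, and S100a9, a calprotectin subunit, by −0.33 ± 0.10. The count was 2 without 28 day control 1, 28 day exposed 2 or any 7 day array other than control 2. Of 11 genes of mast cells, eosinophils and type 2 responses 4 fell (background 8.09% for each list here). Ccl11, eotaxin, which draws eosinophils, lay at log2 9.52, 9.30 and 9.21 in 7 day controls and at 7.93, 8.18 and 8.45 in exposed. After 28 days, controls lay at 8.62, 8.36 and 8.12 and exposed arrays at 7.80, 7.66 and 7.86. Exposed arrays were below controls at both days, with a fall of −0.88 ± 0.13 (adjusted p = 0.00754) that held in every leave-out fit. Il1rl1, the receptor of interleukin 33, fell by −0.64 ± 0.09, Alox15, a lipoxygenase, by −0.43 ± 0.09 and Gata3, a type 2 transcription factor, by −0.35 ± 0.09. Gata3 passed in 6 of the 12 leave-out fits, not without 28 day control 1. Without that control the type 2 list had 3 falls. Among 20 prostaglandin and leukotriene genes 7 fell and 0 rose. Pla2g4a, the phospholipase that frees arachidonic acid, fell by −0.76 ± 0.11, Tbxas1, thromboxane synthase, by −0.71 ± 0.14 and Lta4h, which makes leukotriene B4, by −0.45 ± 0.07. Without 28 day control 1, 5 of the 20 fell.

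Inflammatory mediators also fell, 12 of 31 (background 8.09%) with 0 rises and a median of −0.31. Ccl21, the chemokine of lymphatic vessels that guides dendritic and T cells, lay at log2 10.14, 9.80 and 9.95 in 7 day controls and at 8.70, 9.08 and 8.93 in exposed. At 28 days the values were 9.56, 9.07 and 9.44 in controls and 8.56, 8.50 and 8.56 in exposed. The groups were apart at both days, with a fall of −0.94 ± 0.10 (adjusted p = 0.00562) and a 28 day difference of −0.72 without 28 day control 1. Ccl2, which draws monocytes, fell by −1.02 ± 0.21, with −0.71 at 7 days and −1.33 at 28 days. Tnf, tumour necrosis factor, fell by −0.63 ± 0.11, and Il1rn, the antagonist of interleukin 1, by −1.09 ± 0.19. These 4 passed in every leave-out fit. The count of falls was 9 without 28 day control 1 and 6 to 7 without 7 day controls 1 or 3 or 28 day exposed 2.

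Of 35 interferon response genes 19 fell (background 8.09%) and 1 rose, with a median of −0.36, −0.42 at 7 days and −0.27 at 28 days. For 15 of them all exposed arrays lay below all controls at both days (6.63% of genes did). Ifi47, an interferon-induced GTPase, lay at log2 9.86, 9.59 and 9.85 in 7 day controls and at 8.44, 9.04 and 9.05 in exposed. Controls at 28 days lay at 9.19, 8.74 and 8.95, and exposed arrays at 8.24, 8.17 and 8.10. The fall was −0.86 ± 0.12 (adjusted p = 0.00698), with no overlap at either day. Gbp2, a guanylate-binding protein, fell by −0.58 ± 0.08 (adjusted p = 0.00698), Cxcl10, a chemokine for activated T cells, by −0.52 ± 0.09 (adjusted p = 0.00918) and Ifi44l by −0.46 ± 0.08. These 4 passed in every leave-out fit. Mx2, an antiviral GTPase, rose by 0.76 and was the exception of the list. The falls numbered 12 without 28 day control 1, with a 28 day median of −0.19, and 10 to 12 without any one 7 day control, 7 day exposed 1 or 28 day exposed 2.

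Promoters of interferon response genes often hold the core of the interferon-stimulated response element, GAAA, any 2 bases, then GAAA, sought on both strands. The letters were found in 11 of the 16 genes that fell and have a RefSeq promoter (68.8%), in 17 of 28 tested members with one (60.7%) and in 1312 of all 33469 promoters (3.92%). Upstream sequences of 4 genes that fell show where the match lies (RefSeq, GRCr8, plus strand, 250 bases before the start site, matches in capitals). The windows are chr2:234005477-234005726 for Gbp2, chr14:15988816-15989065 for Cxcl10, chr2:243328473-243328722 for Ifi44l and chr10:42874797-42875046 for Igtp, a further interferon-induced GTPase, which fell by −0.33.
Gbp2: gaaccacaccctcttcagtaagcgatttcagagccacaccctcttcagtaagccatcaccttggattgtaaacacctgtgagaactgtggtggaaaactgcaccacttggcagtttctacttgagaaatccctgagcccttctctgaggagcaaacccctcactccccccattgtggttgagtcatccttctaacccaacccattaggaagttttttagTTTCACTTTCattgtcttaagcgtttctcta
Cxcl10: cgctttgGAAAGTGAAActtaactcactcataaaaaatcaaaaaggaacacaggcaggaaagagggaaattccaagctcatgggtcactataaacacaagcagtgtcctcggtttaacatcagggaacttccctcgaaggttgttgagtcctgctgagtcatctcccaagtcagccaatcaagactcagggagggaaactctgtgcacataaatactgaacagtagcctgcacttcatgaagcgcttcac
Ifi44l: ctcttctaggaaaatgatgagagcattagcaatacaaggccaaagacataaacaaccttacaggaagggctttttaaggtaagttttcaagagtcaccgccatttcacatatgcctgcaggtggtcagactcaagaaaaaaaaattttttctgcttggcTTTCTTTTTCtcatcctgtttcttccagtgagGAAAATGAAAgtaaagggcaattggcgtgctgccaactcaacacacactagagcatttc
Igtp: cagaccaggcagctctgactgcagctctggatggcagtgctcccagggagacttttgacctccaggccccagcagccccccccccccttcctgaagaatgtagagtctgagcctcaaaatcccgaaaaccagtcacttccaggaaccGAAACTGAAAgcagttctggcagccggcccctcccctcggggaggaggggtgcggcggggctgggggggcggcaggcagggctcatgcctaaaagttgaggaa
The matches start 31 bases before the start site in Gbp2, 243 in Cxcl10, 91 and 59 in Ifi44l and 103 in Igtp. In Gbp2 and in the first of the pair in Ifi44l the letters read on the opposite strand. Nothing on the binding of a factor follows from them.

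Vessel genes were lower. Of 25 endothelial genes 11 fell (background 8.09%) and 1 rose, with a median of −0.43, −0.70 at 7 days and −0.17 at 28 days. Cd34, a surface sialomucin of endothelium, lay at log2 10.48, 10.22 and 10.36 in 7 day controls and at 9.15, 9.49 and 9.74 in exposed. The 28 day arrays read 9.57, 9.28 and 9.44 in controls and 8.70, 8.66 and 8.66 in exposed. The fall of −0.83 ± 0.10 (adjusted p = 0.00698) had no overlap at either day, and the 28 day difference was −0.68 without 28 day control 1. Pecam1, the junctional protein CD31, fell by −0.78 ± 0.12, Cdh5, vascular cadherin, by −0.47 ± 0.08 and Sox17, an endothelial transcription factor, by −0.36 ± 0.08. Lpl, the lipase held on capillary walls, fell by −0.97 ± 0.11 (adjusted p = 0.00562), and these 5 passed in every leave-out fit. Cldn5, a tight junction protein, was the member that rose, by 0.23, and was not past the threshold without 28 day control 1 or any one 7 day array, nor without any one 28 day exposed array. With 28 day control 1 left out, 5 members fell and the 28 day median was 0.01. Without any one 7 day array or 28 day exposed 2 the falls numbered 4 to 5, and without 28 day control 3, 19.

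Of 28 fibroblast and matrix genes 11 fell (background 8.09%) and 0 rose, with medians of −0.27 at 7 days and −0.21 at 28 days. Mmp2, a gelatinase of connective tissue, lay at log2 11.64, 11.54 and 11.74 in 7 day controls and at 10.85, 10.96 and 11.07 in exposed. After 28 days, controls lay at 10.67, 10.64 and 10.50 and exposed arrays at 10.13, 10.30 and 10.13. Exposed arrays lay below controls at both days, and Mmp2 fell by −0.55 ± 0.07 (adjusted p = 0.00698). Lum, the proteoglycan lumican, fell by −0.74 ± 0.12, Mmp14, the membrane protease that activates Mmp2, by −0.50 ± 0.08 and Timp2, a protease inhibitor, by −0.33 ± 0.06. These 4 passed in every leave-out fit. With 28 day control 1 left out, 10 members fell and the 28 day median was −0.18, and 7 fell without 7 day control 1 or 7 day exposed 2.

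Of 26 genes of bone and cartilage 6 fell, among them Ucma, a cartilage matrix protein, by −0.74 ± 0.14, Chad, chondroadherin, by −0.89 ± 0.22 and Alpl, the alkaline phosphatase of mineralising tissue, by −0.47 ± 0.10. The count was 2 without 28 day control 1 and 2 to 3 without any one 7 day control, 7 day exposed 1 or 28 day exposed 2. Of 17 skeletal muscle genes 0 passed in either direction by limma, while leaving out 28 day controls 1, 2 or 3 gave 1 to 2 falls. Of 14 erythroid genes 2 fell (background 8.09% for each list here). They were Alas2, the erythroid enzyme of haem synthesis, by −0.80 ± 0.17 and Gypc, a red cell membrane protein, by −0.25 ± 0.06. Alas2 passed in every leave-out fit, and Gypc in 6, not without any one 7 day control, 7 day exposed 1 or 2, or 28 day exposed 2. The erythroid count was 4 without 28 day control 2.

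Squamous and secretory genes of the epithelium were lower in part. Of 22 basal cell and squamous differentiation genes 4 fell (background 8.09%) and 0 rose, with a median of −0.58 and 21 members below 0. Serpinb5, an epithelial serpin, fell by −0.92 ± 0.25, Gjb2, a gap junction protein, by −0.64 ± 0.17, Dsc3, a desmosomal cadherin, by −0.59 ± 0.14, and Col17a1, a collagen of hemidesmosomes, by −0.26 ± 0.06. Scel, sciellin, of the cornified envelope, lay at log2 9.14, 8.72 and 9.03 in 7 day controls and at 6.66, 7.75 and 8.30 in exposed. At 28 days the values were 8.77, 7.14 and 7.31 in controls and 7.11, 6.60 and 7.12 in exposed. Exposed arrays were below controls at both days, narrowly at 28 days except against 28 day control 1. Scel fell by −1.09 ± 0.32 (adjusted p = 0.0437), and without 28 day control 1 its adjusted p was 0.0805. The list had 1 fall without that control and without 7 day controls 2 or 3 or 7 day exposed 2. It had 0 without 7 day control 1 or 28 day exposed 2, 2 without 7 day exposed 1, and 7 without 28 day control 2.

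Serpinb10, another serpin, had the largest mean fall of the 12 named falls, −1.72 ± 0.43 (adjusted p = 0.0254). It lay at log2 8.88, 8.71 and 8.98 in 7 day controls and at 5.84, 7.67 and 8.42 in exposed. Controls at 28 days lay at 9.27, 7.31 and 8.10, and exposed arrays at 6.61, 5.62 and 6.77. Exposed arrays were below controls at both days, with a wide spread among them. Of 20 mucous and secretory genes 3 fell (background 8.09%). Slpi, a protease inhibitor of airway secretions, fell by −1.06 ± 0.16 (adjusted p = 0.00751, limma). The others were Lyz2, given above, and Creb3l1, a factor of secretory cells, by −0.33 ± 0.09. Creb3l1 passed in 4 of the 12 leave-out fits, not without 28 day control 1. Slpi differed by −0.81 at 7 days and −1.31 at 28 days, had no overlap at either day and passed in every leave-out fit. Clca1, a product of goblet cells, differed by 0.23 at 7 days and −3.89 at 28 days. Its 28 day controls lay between log2 8.39 and 11.10 and exposed arrays at 5.74, 5.71 and 6.38. Its mean over both days, −1.83 ± 0.74, did not pass (adjusted p = 0.122). Clca4l, of the same family, fell by −1.31 ± 0.29, and Hopx, a homeodomain protein, by −0.91 ± 0.16. The mucous count was 2 without 28 day control 1 and 6 without 28 day control 3.

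Few genes of formaldehyde and aldehyde metabolism passed in the mean over both days. Of 29 such genes 2 rose and 5 fell (background 8.11% and 8.09%), and 23 members were below 0. The median was −0.20, against −0.02 over all probe sets tested. The list median was −0.20 at 7 days and −0.07 at 28 days, and the 28 day median was 0.06 without 28 day control 1. Aldh9a1, an aldehyde dehydrogenase, lay at log2 11.12, 10.97 and 10.99 in 7 day controls and at 10.44, 10.71 and 10.72 in exposed. The 28 day arrays read 10.13, 10.32 and 9.86 in controls and 9.65, 9.62 and 9.62 in exposed. It fell by −0.44 ± 0.08 (adjusted p = 0.0104), with the groups apart at both days. Aldh3a2, the fatty aldehyde dehydrogenase, rose by 0.46 ± 0.13 (adjusted p = 0.0352). Aox4, an aldehyde oxidase, fell by −1.10 ± 0.32, with −1.74 at 7 days, −0.45 at 28 days and −0.06 at 28 days without 28 day control 1. Aldh2, the mitochondrial enzyme that oxidises aldehydes, differed by 0.33 ± 0.27 (adjusted p = 0.453) and Esd, which hydrolyses S-formylglutathione, by −0.01 ± 0.09 (adjusted p = 0.973). Aldh1a1 differed by −0.46 ± 0.25, Aldh3a1, abundant in surface epithelium, by −0.54 ± 0.24, and Cat, catalase, by −0.23 ± 0.14, and none of these 3 passed. The falls numbered 2 without 28 day control 1, 1 to 2 without any one 7 day array or 28 day exposed 2, and 11 without 28 day control 3. The rises numbered 1 without 28 day control 1 and 0 without any one 7 day array or 28 day exposed 2.

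Stress lists had shares near the background. Of 29 targets of NRF2, the factor of the antioxidant response, 2 rose and 2 fell. Mt1, a metallothionein that binds metals and oxidants, lay at log2 11.63, 11.75 and 11.86 in 7 day controls and at 12.61, 12.28 and 12.42 in exposed. After 28 days, controls lay at 10.68, 10.62 and 9.83 and exposed arrays at 11.43, 11.12 and 11.51. Exposed arrays were the higher ones at both days, and Mt1 rose by 0.83 ± 0.14 (adjusted p = 0.00927), which held in every leave-out fit. Cbr1, a carbonyl reductase, rose by 0.47 ± 0.10, while Gclm, a subunit of the enzyme that starts glutathione synthesis, fell by −0.58 ± 0.11 and Cbr3, a second carbonyl reductase, by −0.46 ± 0.13. Falls in this list numbered 1 without 28 day control 1 and 9 without 28 day control 3. Of 27 chaperone genes 2 rose, Hspa4l by 0.74 ± 0.17 and Hsph1 by 0.24 ± 0.07, and 2 fell, Dnajb1 by −0.29 ± 0.07 and Hspb8 by −0.22 ± 0.06. Hspa4l passed in every leave-out fit, Dnajb1 in 8, Hsph1 in 3 and Hspb8 in 2. Without 28 day control 1 there was 1 rise and 1 fall. The rises numbered 5 without 28 day control 2, and 1 without any one 28 day exposed array or any 7 day array other than exposed 3. The falls numbered 0 without 7 day controls 1 or 3, 7 day exposed 1 or 28 day exposed 2, 1 without 7 day control 2, 7 day exposed 2 or 3, 28 day control 2 or 28 day exposed 3, and 4 without 28 day control 3.

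Of 25 DNA repair genes 3 fell (background 8.09%) and 0 rose. Ercc3, a helicase of nucleotide excision repair, fell by −0.25 ± 0.06, Fancc, of the Fanconi core complex, by −0.19 ± 0.06 and Tdp1, a phosphodiesterase, by −0.20 ± 0.06. Of the repair genes 1 fell without 28 day control 1, and 0 fell without 7 day controls 1 or 3, 7 day exposed 1 or 28 day exposed 2. Of 20 p53 targets 0 rose and 0 fell by limma, with a median of −0.05, though 2 to 3 fell without 28 day control 3 or 28 day exposed 1. Of 31 cell cycle genes 1 rose and 1 fell, shares below the background of 8.11% and 8.09%. Ndc80, of the kinetochore, rose by 0.77 ± 0.19 and Mcm2, of the replicative helicase, fell by −0.26 ± 0.07. Ndc80 differed by 1.39 at 7 days and 0.14 at 28 days. Mcm2 passed in 4 of the leave-out fits, not without 28 day control 1, and Ndc80 in 5, not without any one 7 day array or 28 day exposed 2.

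Circadian clock genes moved in both directions. Of 15 members 3 rose and 3 fell (background 8.11% and 8.09%). The median of the list was −0.03, with −0.22 at 7 days and 0.15 at 28 days. The rises were Per2, Cry1 and Cry2, of the repressing arm, and the falls were Nr1d1, Bmal1 and Npas2. Per2 lay at log2 9.93, 9.93 and 10.03 in 7 day controls and at 10.14, 10.20 and 10.28 in exposed. At 28 days the values were 8.73, 8.59 and 8.25 in controls and 9.28, 8.92 and 9.02 in exposed. The groups were apart at both days. Per2 rose by 0.40 ± 0.10 and Cry1 by 0.37 ± 0.09, while Bmal1, the activating partner, fell by −0.60 ± 0.15 with the groups apart at both days. Nr1d1, a nuclear receptor that represses Bmal1, fell by −1.18 ± 0.29, with −1.92 at 7 days and −0.44 at 28 days. The hour of tissue collection is not given in the sources used here, and its part in these values was not tested. The rises numbered 1 and the falls 2 without 28 day control 1. Without 7 day control 1 both were 0, and without any other single 7 day array the rises numbered 1. The falls were 1 without 7 day control 2, 7 day exposed 2 or 3, or 28 day exposed 2. The E-box letters CACGTG were sought in the promoters of clock genes as well. They were in 0 of 5 called members with a RefSeq promoter, in 3 of 14 tested members with one (21.4%) and in 2148 of 33469 promoters (6.42%).

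Among 15 glucocorticoid response genes 2 rose (background 8.11%) and 0 fell. Fkbp5, an inducible cochaperone of the receptor, rose by 0.61 ± 0.13 and Fam107a by 0.33 ± 0.09, each with groups apart at both days. Fkbp5 passed in every leave-out fit and Fam107a in 3 of the 12. Of 26 immediate early genes 2 fell (background 8.09%), Ier3 by −0.50 ± 0.11 and Klf4 by −0.44 ± 0.13. Klf4 passed in 2 of the leave-out fits, those without 28 day controls 2 or 3.

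Among 19 genes of irritant sensing and neuropeptides 1 rose, Npy, and 4 fell (background 8.11% and 8.09%). Calcb, a calcitonin gene-related peptide of sensory nerves, fell by −0.99 ± 0.28 (adjusted p = 0.0401), with −0.27 at 7 days and −1.71 at 28 days. Its 28 day controls lay at log2 9.08, 8.18 and 7.88 and exposed arrays at 6.84, 6.47 and 6.70, apart, while the groups overlapped at 7 days. Calcb passed in 3 of the 12 leave-out fits, not without 28 day control 1. Mme, neprilysin, which degrades such peptides, fell by −0.43 ± 0.09, and Gnat3 and Plcb2, of the taste-type cascade of chemosensory cells, fell by −0.46 and −0.39. The falls numbered 2 without 28 day control 1 and 1 without any one 7 day control or 7 day exposed 1.

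The difference between the days passed its own test for few probe sets. The interaction was past the threshold for 22 of 21910 (0.1%), of which 12 were among the called rises and 0 among the called falls. Of these, Or4a66 differed by 3.64 at 7 days and 0.56 at 28 days, Or4k50 by 3.26 and 0.13, and Or4k52 by 3.42 and 0.19. The interaction passed for 2640 probe sets without 28 day control 1. These included 350 of the called rises, of which 349 had the smaller rise at 28 days, and 98 of the called falls, of which 68 had the smaller fall at 28 days. Across probe sets, which share arrays and are not independent, the 7 and 28 day differences had a Pearson r of 0.462, 0.0983 without 28 day control 1 and 0.637 without 28 day control 3.

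Most of the nasal effects that could be tested against blood differed from those in blood. In 20096 probe sets kept in both tissues, the mean exposure difference of nose minus blood passed for 3339 (16.6%). Of 2473 called nasal probe sets tested there, 1616 also passed in the nasal direction. The calls and this contrast share the nasal values, which favours a pass in that direction, so the count is only a description. Ifi47 had a difference of 0.36 in blood, and nose minus blood was −1.22 ± 0.15 (adjusted p = 9.93e-05). Gbp2 differed by 0.38 in blood and −0.96 for nose minus blood, and Cxcl10 by 0.44 and −0.96. Cxcr6, a receptor of tissue-homing T cells, fell by −0.71 ± 0.16 in nose against 0.92 in blood, and the difference of −1.63 passed (adjusted p = 0.000116). Of 34 interferon genes tested in both tissues, the exposure difference was lower in nose than in blood for 12 and higher for 2 (8.66% and 7.96% of probe sets). It was lower for 11 of 13 killer cell genes, of which 4 were called falls in nose itself. In the macrophage list it was lower for 3 of 29, and in the endothelial list for 13 of 23. For Mt1 and Alox15 the difference between tissues did not pass (adjusted p = 0.0576 and 0.0565).

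**Figure D5:**
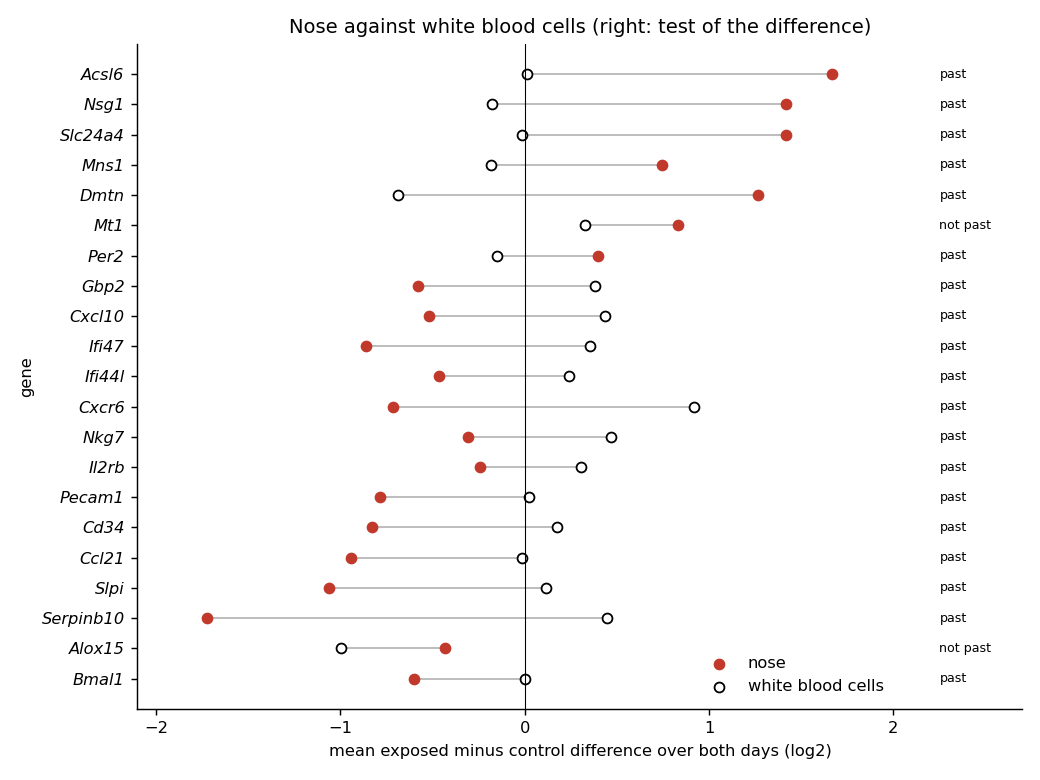
Mean exposed minus control difference over both days (log2, x axis) of 21 called nasal genes in nose (filled points) and in white blood cells (open points), with the outcome of the test of the difference between tissues at the right. Ifi47, Gbp2, Cxcl10 and Cxcr6 lie below 0 in nose and above 0 in blood.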

How the data were processed

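Gene expression was measured on Affymetrix arrays in nasal tissue and white blood cells, 24 arrays in all. The authors deposited normalized intensities on a linear scale, processed with Partek per the submitters' processing notes; no source used here gives its version, the normalization or any filter. The deposited intensities were taken to log2 and left otherwise as they were. limma 3.58.1 (R 4.3.3, empirical Bayes) was fitted on day and exposure for the 21910 probe sets whose nasal mean reached percentile 25, with Benjamini-Hochberg adjustment over all of them. Differences at each day and the interaction came from a fit of 4 group means, and nose minus blood from 8 group means over 24 arrays. The fit was checked on simulated data. No depth exists for arrays, and 3 per group limit the precision.

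Platform annotation gave 1 symbol to 15310 of 29214 probe sets, several to 323 and none to 13581; genes with several probe sets were counted by 1, and 198 probe sets repeat another's values. Named genes were the 12 called rises and 12 called falls with the largest smaller-of-both-days difference, the 5 each way with the largest mean, up to 4 of each list by moderated statistic, up to 3 each way by interaction and by nose minus blood, and Aldh2, Esd, Cat, Aldh1a1, Aldh3a1, Moxd2, Clca1 and Or4e5. Other list members were named after their values were seen, to complete a list's count. The comparison and the gene lists were chosen with earlier results of these data known. Alternatives were other filters, scalings, models, thresholds and leaving out each array.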

Additional observations from a re-analysis of the deposited data

Results flagged for a closer look

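The exposure difference at 28 days was smaller than that at 7 days, past the threshold of the interaction, for 12 called probe sets. Among them were the odorant receptors Or4a66, where the 28 day minus the 7 day difference was −3.08, Or4k50 with −3.13 and Or4k52 with −3.23.

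The exposure difference in nose differed from that in blood for 1617 called probe sets, which were called on the same nasal values. The genes with the largest such difference were Or2l13, with 1.96 for nose minus blood, Dmtn with 1.95 and Or12j3 with 1.87 among the rises, and Serpinb10 with −2.17, Cxcr6 with −1.63 and Scel with −1.46 among the falls. Dmtn, a protein of the red cell membrane skeleton, rose by 1.26 in nose and differed by −0.69 in blood. Serpinb10 differed by 0.44 in blood.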

How the results depend on the processing

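Leaving out 1 array gave 1042 to 5261 called probe sets (560 to 2356 rises, 482 to 2905 falls), 336 to 1525 genes that rose and 370 to 2059 that fell, 1 to 2640 interactions, and 2138 to 3545 probe sets without overlap at both days (927 to 1818 above, 1184 to 2051 below). With the replicate number as a block 595 were called (353 rises, 242 falls; 208 and 189 genes) and 82 interactions. Deviations of same-numbered exposed and control arrays had r = −0.26, −0.078 and −0.141 at 7 days and 0.192, 0.247 and 0.154 at 28 days. Since 3 of the 6 pairs were below 0 and the labels state no pairing, the block was not used for the main values. Calls numbered 4846 with all 24 arrays in 1 fit (2551 and 2295; 1717 and 1571 genes), 4735 at an adjusted p under 0.1 (2373 and 2362; 1574 and 1635 genes) and 801 at an unadjusted p under 0.005 with 1.5-fold (621 and 180; 407 and 130 genes). The olfactory covariate left 5 (0 rises, 5 falls; 0 and 2 genes), and 0 without 28 day control 1 as well, an alternative added after seeing the data. Under the covariate the sign turned for Aldh1a1 (0.117), Aldh3a1 (0.00453), Cat (0.170), Cnga2 (−0.19), Ebf4 (−0.025), Esd (0.190), Fabp7 (−0.0026), Mag (−0.0024), Moxd2 (−0.504) and Omp (−0.199), none past the threshold, and Cnga2 and Omp are part of that mean. Esd ranged from −0.080 to 0.0593 over the leave-out fits and turned sign in 4 of them. Interactions numbered 145 with no filter, 1 with the median filter, 47 with quantiles within day, 1 with quantiles over the 12 nose arrays, 65 with median centring and 14 with a trended, robust prior. The causes were not tested. Of 135 named genes past the threshold, 73 passed in each of the 12 leave-out fits and 0 turned sign in any. Without 28 day control 1, 37 of the 135 were not past the threshold. Filters, quantile scaling, median centring and the trended prior kept the count of calls within 1.5 times the main one (2367 to 3139).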

Other observations

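Some called genes were not described with their values above. Glrx, a glutaredoxin that reduces glutathionylated proteins, fell by −0.81 ± 0.20, with −0.86 at 7 days and −0.75 at 28 days. Prdm1, a factor of plasma cells and 1 of the 3 called B and plasma cell genes, fell by −0.41 ± 0.09 in nose and differed by 0.28 in blood. Spock1, a proteoglycan, rose by 1.78 ± 0.44 and Flrt1, a neuronal adhesion protein, by 1.76 ± 0.41, each with groups apart at both days and 28 day differences of 0.78 and 0.72 without 28 day control 1. Of the 2896 called probe sets, 841 carry no symbol or several and could not be described.

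With the olfactory neuron mean as a covariate, 2 probe sets with a gene symbol were past the threshold. They were Pcp4l1, with −0.72 against 0.59 without the covariate, and Scn3b, a sodium channel subunit, with −0.68 against 0.95. The other 3 were probe sets with no symbol, of which 2 repeat the same values. Of the 135 named genes past the threshold without the covariate, 0 passed with it.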
